A study of Homo sapiens with 12 samples.

Results

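The aryl hydrocarbon receptor pathway was followed here through 6 genes, AHR, ARNT, AHRR, TIPARP, CYP1A1 and CYP1B1, chosen by symbol out of the 25382 symbols of the deposited count table. All 6 passed the filter on low counts, which left 15437 genes. Their levels were measured by RNA sequencing in Cal27, an established line of human tongue squamous carcinoma cells, in 12 libraries of 4 conditions with 3 replicate numbers each, all of the WT genotype. Cells spent 5 days of conditioning on collagen-coated polyacrylamide gel and 1 day after replating on a soft gel of 0.48 kPa. In soft-to-soft the conditioning gel was also soft and nothing was added. In stiff-to-soft it was a gel of 20 kPa. In LPA-to-soft, lysophosphatidic acid, a lipid that signals through cell surface receptors, was given during conditioning on the soft gel. LPA-to-FAKi had the same conditioning, and an inhibitor of focal adhesion kinase during the replating day. By the labels it differs from LPA-to-soft by the inhibitor. The labels name neither the compound, its dose nor a solvent control, so inhibitor and solvent cannot be told apart. The series design counts stiff-to-soft and LPA-to-soft as conditions with a mechanical memory and the other two as conditions without it. The question asked of the 6 genes was whether the libraries with the inhibitor show the transcripts of an activated receptor. The genes were picked with values of those libraries known, so every comparison of the 6 genes with LPA-to-FAKi is a description without a test.

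AHR encodes a transcription factor that waits in the cytosol in a complex with the chaperone HSP90, and moves to the nucleus when a ligand binds, for example a polycyclic aromatic hydrocarbon, a dioxin or a tryptophan metabolite. There it pairs with ARNT, and the dimer binds short DNA elements with the core GCGTG near its target genes. Classical targets are CYP1A1 and CYP1B1, cytochrome P450 enzymes that oxidise such ligands, and AHRR and TIPARP, which feed back on the receptor: AHRR competes for ARNT at the same elements, and TIPARP is an ADP-ribosyltransferase that promotes loss of the receptor protein. In squamous epithelium the receptor is known for its response to smoke constituents and for a part in keratinocyte differentiation.

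In the libraries with the inhibitor, the CYP1A1 level was about 3-fold that of LPA-to-soft, with a log2 fold change of 1.62 ± 0.25 (SE, n = 3 per condition). CYP1B1 and AHRR were also higher there, by 0.55 ± 0.16 and 0.70 ± 0.25 on the log2 scale. The transcript of the receptor itself, AHR, was lower, by a log2 fold change of -0.82 ± 0.16. TIPARP, at 0.06 ± 0.08, and ARNT, at -0.17 ± 0.08, differed little. In that comparison no gene of any kind passed edgeR's test. Of 7 other enzymes and factors that the receptor is known to induce, DESeq2 called 1 higher (NQO1) and 1 lower (XDH). Over all genes DESeq2 called 7.97% in either direction. Neither gene passed by limma voom, and both were singled out after their values were seen.

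The stretch before the start site is shown for a target gene with a higher level in LPA-to-FAKi (CYP1A1), for the feedback repressor (AHRR) and for a target gene whose level hardly differed (TIPARP). Each is the 250 bases before a RefSeq start, written 5′ to 3′ on the gene's strand, from RefSeq with coordinates of GRCh38.p14. Capitals mark GCGTG, or CACGC where the core lies on the other strand. CYP1A1 (chr15:74725529-74725778, minus strand), AHRR (chr5:322360-322609, plus strand) and TIPARP (chr3:156674340-156674589, plus strand) read:
CYP1A1: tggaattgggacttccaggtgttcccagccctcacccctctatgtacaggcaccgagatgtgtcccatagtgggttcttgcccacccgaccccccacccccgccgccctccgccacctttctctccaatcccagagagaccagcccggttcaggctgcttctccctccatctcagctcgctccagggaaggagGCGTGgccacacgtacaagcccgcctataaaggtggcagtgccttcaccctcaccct
AHRR: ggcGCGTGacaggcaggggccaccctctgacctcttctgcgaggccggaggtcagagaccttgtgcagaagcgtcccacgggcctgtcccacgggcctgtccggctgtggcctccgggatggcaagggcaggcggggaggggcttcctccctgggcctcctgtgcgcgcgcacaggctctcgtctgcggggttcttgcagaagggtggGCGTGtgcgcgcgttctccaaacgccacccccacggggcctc
TIPARP: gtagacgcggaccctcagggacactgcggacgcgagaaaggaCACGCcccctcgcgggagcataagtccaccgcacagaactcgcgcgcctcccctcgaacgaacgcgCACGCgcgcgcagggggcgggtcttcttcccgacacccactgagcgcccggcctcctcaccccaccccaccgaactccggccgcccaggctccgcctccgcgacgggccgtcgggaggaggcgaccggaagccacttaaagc
The window of CYP1A1 holds the core 1 time, with its first base 57 bases before the start. This AHRR window holds it 2 times, and the window of the gene's other listed start (chr5:321464-321713) holds it 1 time. This TIPARP window holds it 2 times on the opposite strand, and those of the other listed starts of TIPARP hold none. The windows of AHR and ARNT hold none. Of 35116 promoter windows of the same length, 11313, or 32.2%, hold the core on either strand, so a match by itself is common. Windows were matched for 5 of the 6 genes, all but CYP1B1. No binding was measured, and bases beyond these windows were not searched.

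Levels are given in CPM, the count as a share of the TMM-scaled library total, for replicate numbers 1, 2 and 3 in that order, and the plot of level by library shows all of them. A comparison between genes is not made, since CPM does not correct for transcript length. In bulk RNA, fewer cells of a type and less RNA per cell cannot be told apart.

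**Figure D1:**
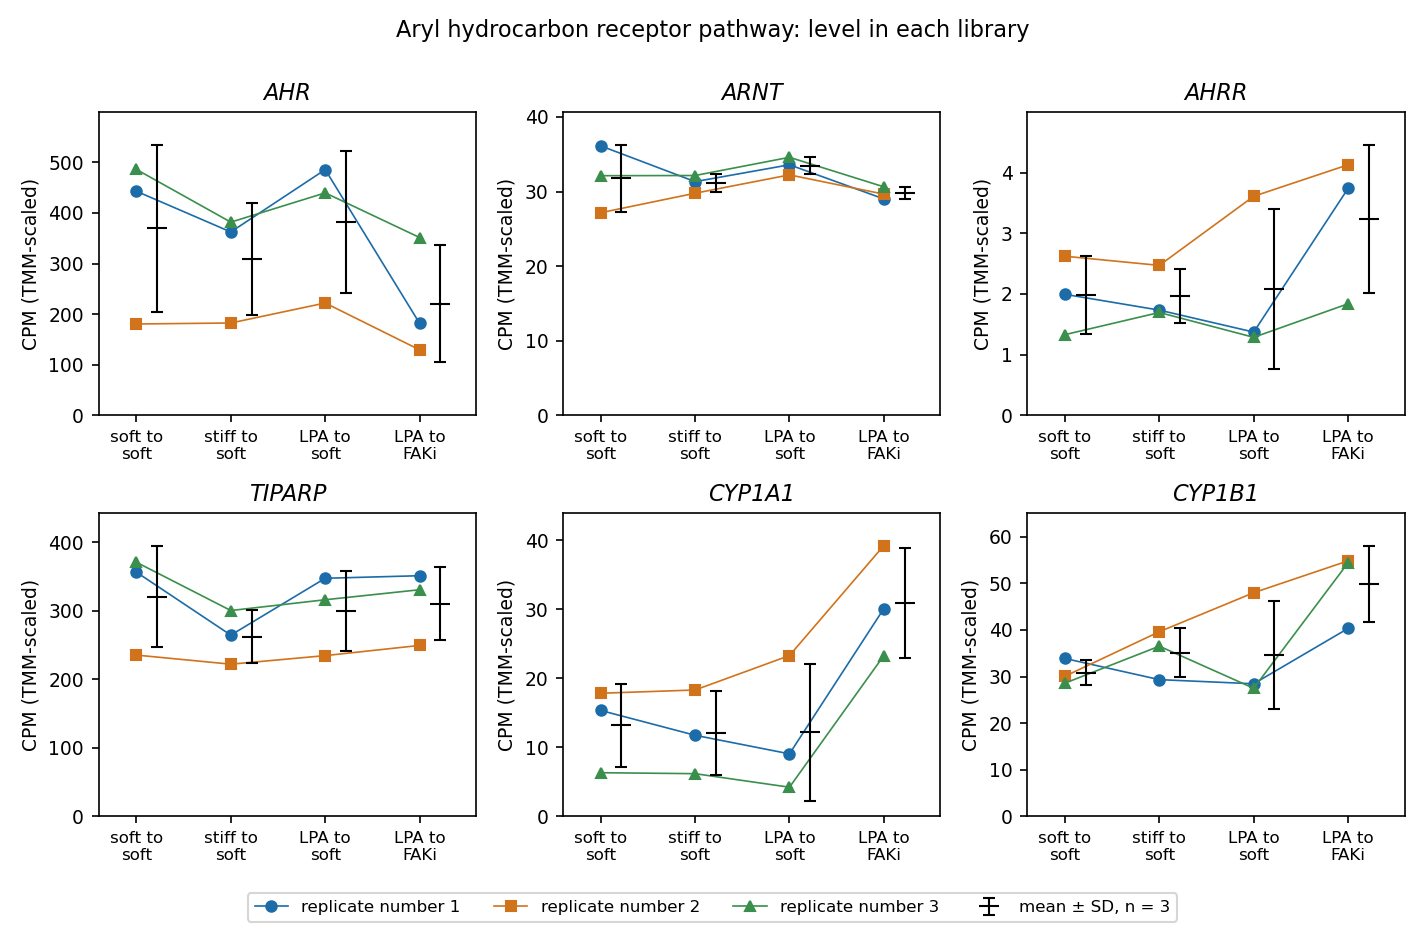
Level of each of the 6 genes in CPM (y axis, from 0) in the 4 conditions (x axis). Points are libraries, lines join libraries of the same replicate number, and black bars are mean ± SD (n = 3). CYP1A1, CYP1B1 and AHRR have their highest point of each line in LPA-to-FAKi, and AHR has its lowest point there.

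AHR, the receptor, stood at 443, 180.5 and 486 CPM in soft-to-soft, 362, 182 and 382 in stiff-to-soft, 486, 222 and 439.6 in LPA-to-soft, and 182, 129 and 351 in LPA-to-FAKi. The library with the inhibitor was the lowest of the 4 conditions at each replicate number, but the ranges of the conditions overlapped widely, because the libraries numbered 2 were low in every condition. The mean was 221 ± 116 CPM (SD) in LPA-to-FAKi, 309 ± 110 in stiff-to-soft, 370 ± 165 in soft-to-soft and 382 ± 141 in LPA-to-soft, and no neighbours in that order differed by more than the SD. Within replicate numbers, LPA-to-FAKi minus LPA-to-soft was -1.42, -0.78 and -0.32 on the log2 scale. The fitted difference of LPA-to-FAKi was -0.72 ± 0.16 from soft-to-soft and -0.51 ± 0.16 from stiff-to-soft. Without LPA-to-FAKi replicate 1, the library with the widest gap, the difference from LPA-to-soft was -0.58 and that from stiff-to-soft -0.27. The difference from LPA-to-soft ranged from -1.02 to -0.58 over 20 other settings.

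ARNT, the dimer partner that the receptor shares with hypoxia-inducible factors, was the steadiest of the 6. It stood at 36.1, 27.2 and 32.1 CPM in soft-to-soft, 31.3, 29.8 and 32.2 in stiff-to-soft, 33.6, 32.2 and 34.6 in LPA-to-soft, and 29.0, 29.7 and 30.6 in LPA-to-FAKi. All 3 libraries with the inhibitor lay under the 3 of LPA-to-soft, as for 5.4% of genes. They lay within the range of soft-to-soft, from which the fitted difference was -0.09 ± 0.08, and near stiff-to-soft, at -0.06 ± 0.08. In order of the means, ARNT was 29.8 ± 0.82 CPM (SD) in LPA-to-FAKi, 31.1 ± 1.2 in stiff-to-soft, 31.8 ± 4.5 in soft-to-soft and 33.5 ± 1.2 in LPA-to-soft. Ranges of neighbours in that order overlapped.

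CYP1A1, the gene most used as a readout of the active receptor, stood at 15.3, 17.8 and 6.31 CPM in soft-to-soft, 11.7, 18.3 and 6.17 in stiff-to-soft, 9.04, 23.3 and 4.21 in LPA-to-soft, and 30.1, 39.2 and 23.3 in LPA-to-FAKi. In each condition the library numbered 2 was the highest and the library numbered 3 the lowest. Every library with the inhibitor lay above all libraries of soft-to-soft, as for 3.04% of genes, and of stiff-to-soft, as for 3.82%. The range met that of LPA-to-soft, since LPA-to-soft replicate 2 and LPA-to-FAKi replicate 3 were both at 23.3 CPM. The means of the conditions without the inhibitor, 12.1 ± 6.1 CPM in stiff-to-soft, 12.2 ± 9.9 in LPA-to-soft and 13.2 ± 6.1 in soft-to-soft (SD), lay well within their spread of each other, and that of LPA-to-FAKi was 30.9 ± 8.0. The gap between the inhibitor and LPA-to-soft differed between replicate numbers, at 1.73, 0.75 and 2.46 on the log2 scale. Against soft-to-soft the fitted difference was 1.35 ± 0.25 and against stiff-to-soft 1.49 ± 0.25. Over 20 other settings the difference from LPA-to-soft ranged from 1.31, without LPA-to-FAKi replicate 3, to 2.02, without LPA-to-soft replicate 2.

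CYP1B1, a cytochrome P450 with a basal level in many epithelial cells, stood at 33.9, 30.1 and 28.6 CPM in soft-to-soft, 29.3, 39.6 and 36.5 in stiff-to-soft, 28.4, 48.0 and 27.5 in LPA-to-soft, and 40.3, 54.8 and 54.4 in LPA-to-FAKi. The libraries with the inhibitor lay above those of soft-to-soft, as for 3.04% of genes, and of stiff-to-soft, as for 3.82%. LPA-to-soft replicate 2 reached into their range. Mean levels were 30.8 ± 2.7 CPM (SD) in soft-to-soft, 34.6 ± 11.6 in LPA-to-soft, 35.1 ± 5.3 in stiff-to-soft and 49.9 ± 8.3 in LPA-to-FAKi, and those without the inhibitor did not differ beyond their spread. The pairwise gaps to LPA-to-soft were 0.50, 0.19 and 0.99 on the log2 scale, so the same replicate number showed the smallest gap for CYP1A1 and for CYP1B1. Fitted differences were 0.67 ± 0.16 from soft-to-soft and 0.51 ± 0.16 from stiff-to-soft. Leaving out LPA-to-soft replicate 3 brought the difference from LPA-to-soft to 0.39, the lowest value over 20 settings, and leaving out LPA-to-soft replicate 2 brought it to 0.77, the highest.

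AHRR, the repressor that competes with the receptor, was scarce, with 146 to 508 deposited counts per library. It stood at 1.99, 2.62 and 1.33 CPM in soft-to-soft, 1.73, 2.47 and 1.70 in stiff-to-soft, 1.37, 3.61 and 1.29 in LPA-to-soft, and 3.74, 4.13 and 1.84 in LPA-to-FAKi. Replicate numbers 1 and 2 of the inhibitor were above every other library, while its replicate 3 lay inside the range of each other condition. Means were 1.97 ± 0.44 CPM (SD) in stiff-to-soft, 1.98 ± 0.65 in soft-to-soft, 2.09 ± 1.32 in LPA-to-soft and 3.24 ± 1.23 in LPA-to-FAKi. Gaps to LPA-to-soft were 1.43, 0.19 and 0.51 on the log2 scale, and the fitted differences from soft-to-soft and stiff-to-soft were 0.70 ± 0.25 and 0.67 ± 0.25. Without LPA-to-soft replicate 1 the difference from LPA-to-soft was 0.45, without LPA-to-FAKi replicate 1 it was also 0.45, and the upper end was 1.00 without LPA-to-soft replicate 2. Without LPA-to-FAKi replicate 1 the differences from soft-to-soft and stiff-to-soft were 0.43 and 0.41. A readthrough transcript joins AHRR to its neighbour PDCD6 in current annotation, and how such reads were shared out is not stated in the labels.

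TIPARP, the feedback ADP-ribosyltransferase, is induced by the receptor and by other signals. Its level was 356, 235 and 371 CPM in soft-to-soft, 264, 222 and 300.3 in stiff-to-soft, 347, 234.5 and 316 in LPA-to-soft, and 351, 249 and 330.7 in LPA-to-FAKi. The ranges of the 4 conditions overlapped, and the libraries numbered 2 were the lowest in each. Means were 262 ± 39 CPM (SD) in stiff-to-soft, 299 ± 58 in LPA-to-soft, 310.4 ± 53.8 in LPA-to-FAKi and 321 ± 74 in soft-to-soft, with no neighbours apart beyond their SD. LPA-to-FAKi differed by -0.04 ± 0.08 from soft-to-soft and by 0.24 ± 0.08 from stiff-to-soft. The sign of the difference from soft-to-soft was kept in 18 of 20 settings, and the difference from stiff-to-soft was 0.15 without stiff-to-soft replicate 1.

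**Figure D2:**
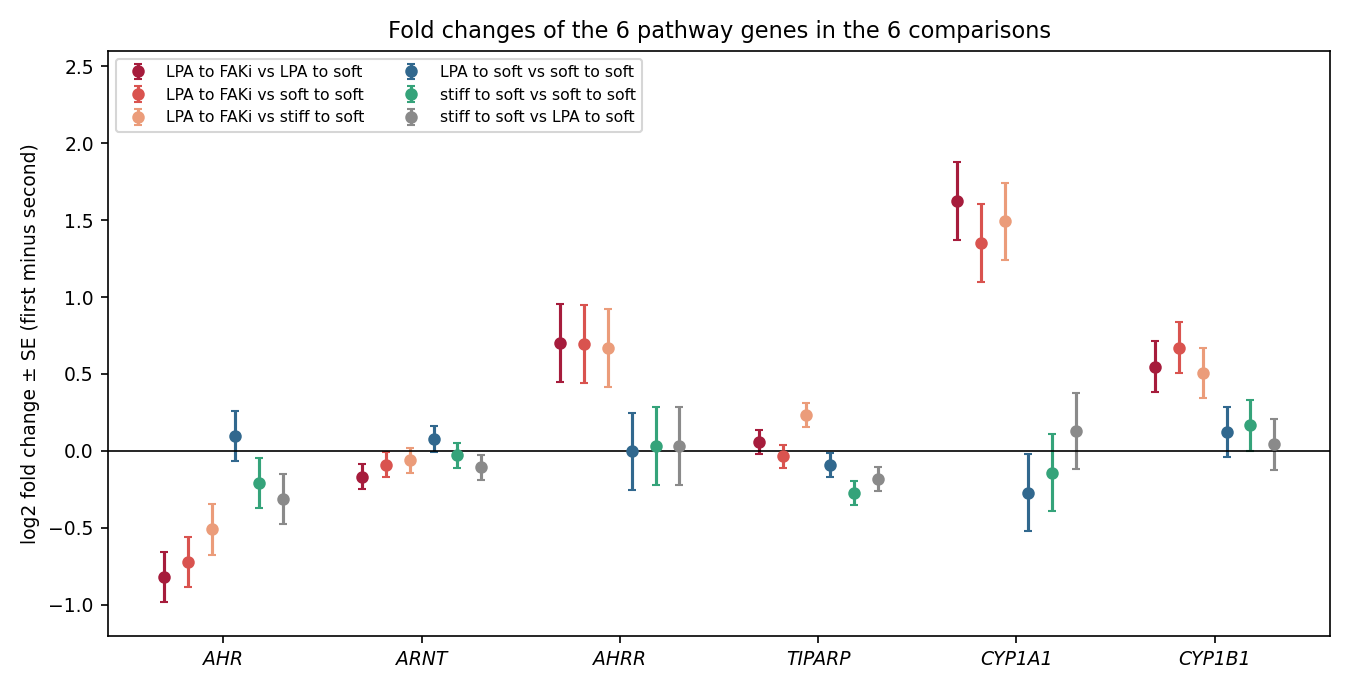
Fitted log2 fold change ± SE (y axis) of each gene (x axis) in the 6 comparisons of conditions, first minus second. The 3 comparisons with LPA-to-FAKi, in red tones, put CYP1A1 between 1.35 and 1.62 and AHR between -0.82 and -0.51. In the 3 others both genes lie closer to 0.

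The library with the inhibitor was the highest of the 4 conditions in all 3 replicate numbers for CYP1A1, CYP1B1 and AHRR, as for 5.27% of all genes tested, and the lowest in all 3 for AHR, as for 5.05%. Against LPA-to-soft, 22.9% of genes were higher and 22.2% lower in 3 of 3 replicate numbers. The 6 genes were chosen on these libraries, so nothing is read from those counts. None of the 6 lay under all libraries of soft-to-soft or of stiff-to-soft, as 3.12% and 3.64% of genes did. None lay above all libraries of LPA-to-soft, as 5.95% of genes did. The 3 comparisons with LPA-to-FAKi share its libraries and are not independent of each other. CYP1A1, CYP1B1, AHR and AHRR kept their sign in each of the 3 comparisons over 20 of 20 settings. The settings refit the libraries on which the genes were chosen, so nothing is read from that either. Without the replicate number in the model, the difference of LPA-to-FAKi from LPA-to-soft was 1.34 ± 0.59 for CYP1A1, 0.53 ± 0.21 for CYP1B1, 0.63 ± 0.44 for AHRR and -0.79 ± 0.47 for AHR. For AHR and CYP1A1 the SE was thus more than 2 times as large as with the block. Differences between replicate numbers took 66.8% of the sum of squares of AHR, 45.4% of CYP1A1, 56.0% of AHRR and 76.2% of TIPARP on the log2 CPM scale, and condition took 25.1%, 46.4%, 26.9% and 16.5%. For CYP1B1 replicate number took 18.9% and condition 54.9%, and for ARNT 29.7% and 30.5%.

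**Figure D3:**
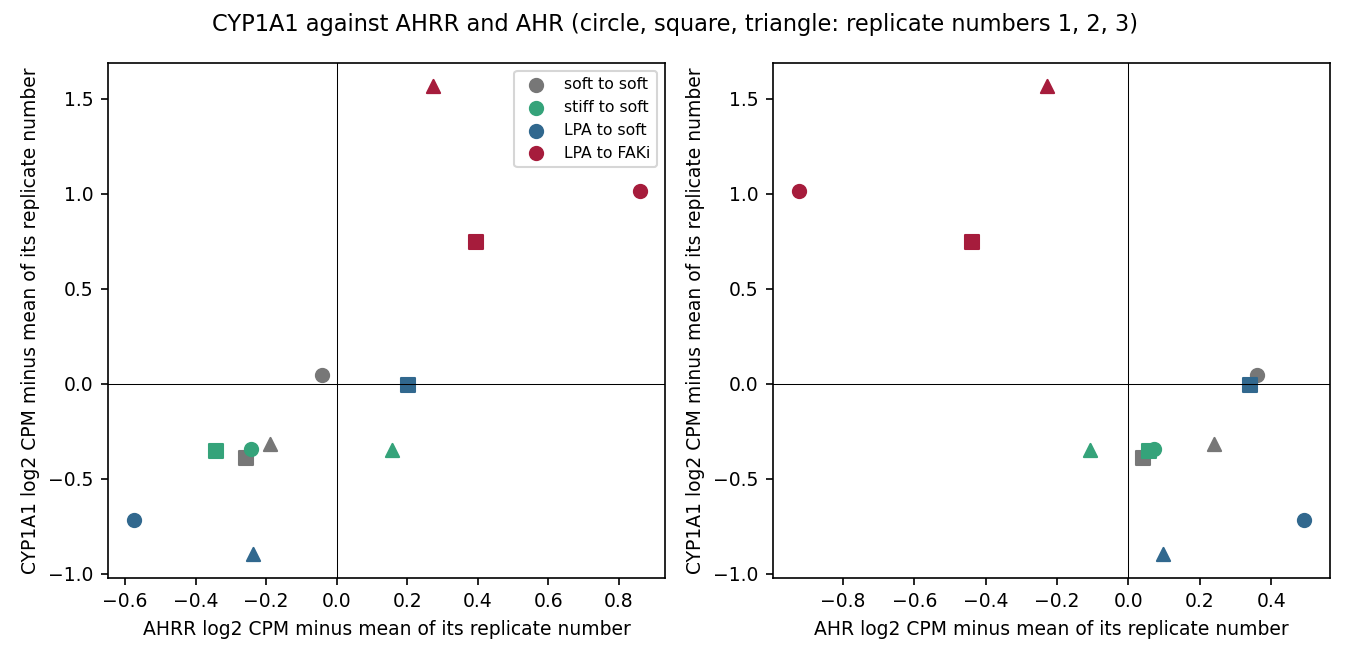
CYP1A1 (y axis) against AHRR (left) and AHR (right), each as log2 CPM minus the mean of its replicate number, with 1 point per library, coloured by condition and shaped by replicate number. The 3 LPA-to-FAKi libraries lie apart at the top, at higher AHRR and lower AHR than the mean of their replicate number.

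With the mean of each replicate number taken off, the LPA-to-FAKi libraries stood apart from the rest in the plot of CYP1A1 against AHRR and AHR, so no correlation between these genes is given. The genes with the most similar pattern over the 12 libraries were found for each member by Pearson's r, which rests in large part on the same LPA-to-FAKi libraries for CYP1A1, CYP1B1, AHR and AHRR. For CYP1A1 they were THAP11 (r = 0.98), VDAC2 (0.97) and PEX16 (0.94). For CYP1B1 they were WDR92 (0.90), LCMT1 (0.90) and CYP1A1, for which no r is given as both are members. For AHR they were ANK3 (0.98), IL20RB (0.98) and HP1BP3 (0.97), and for AHRR LHFPL2 (0.95), PSENEN (0.94) and MED18 (0.93). For TIPARP they were ERV3-1 (0.94), PPP1R3D (0.92) and SNX29P1 (0.91), and for ARNT EHF (0.96), C10orf32 (0.96) and CENPC (0.96). As measured, with replicate differences left in, the nearest genes were others for CYP1A1 (WDR83, SOX15 and ZNF282), AHR (SIDT1, ITM2A and ANGPT1) and TIPARP (MNT, TRIB1 and ZFP36). For CYP1B1 they were then THAP11, PAAF1 and LCMT1, for AHRR URGCP, MED18 and ZNF282, and for ARNT EHF, FAM102B and SIAE.

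The comparisons without the inhibitor ask whether the conditioning alone left a trace in the pathway, and here the 6 genes were tested. None of the 6 passed an adjusted p of 0.05 in edgeR's quasi-likelihood test with replicate number as a block in any of the 3 comparisons. Of all genes tested, 0% passed in LPA-to-soft against soft-to-soft, 0.583% between stiff-to-soft and soft-to-soft and 0.00648% in stiff-to-soft against LPA-to-soft. By limma voom and by DESeq2 none of the 6 passed after adjustment. At an unadjusted p under 0.05 in edgeR the members that passed numbered 0, 1 and 1 in these comparisons, beside 7.97%, 10.2% and 9.42% of all genes. In both of the latter cases the gene was TIPARP, which was lower in stiff-to-soft than in soft-to-soft in 3 of 3 replicate numbers, by a log2 fold change of -0.27 ± 0.08 (edgeR adjusted p = 0.177). Over 20 settings its adjusted p there ran from 0.0512, by DESeq2, to 1.00, with no replicate block. Against LPA-to-soft, TIPARP differed by -0.18 ± 0.08 (edgeR adjusted p = 0.517), also lower in 3 of 3. Of all genes, 15.7% and 16.8% were lower in 3 of 3 in those comparisons.

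CYP1A1 differed by -0.27 ± 0.25 between LPA-to-soft and soft-to-soft (edgeR adjusted p = 0.817), and by -0.14 ± 0.25 between stiff-to-soft and soft-to-soft (edgeR adjusted p = 0.918). CYP1B1 differed by 0.12 ± 0.16 and 0.17 ± 0.16 in the same comparisons (edgeR adjusted p = 0.878 and 0.820). AHR was 0.10 ± 0.16 and -0.21 ± 0.16 (edgeR adjusted p = 0.905 and 0.754), and -0.31 ± 0.16 between stiff-to-soft and LPA-to-soft (edgeR adjusted p = 0.569), where it was lower in 3 of 3 replicate numbers. AHRR was within 0.03 of 0 in all 3 comparisons, with an SE of 0.25. ARNT was 0.08 ± 0.08, -0.03 ± 0.08 and -0.11 ± 0.08, and all 3 stiff-to-soft libraries lay under those of LPA-to-soft, as for 3.19% of genes. No member's ranges were apart between LPA-to-soft and soft-to-soft, where 2.64% of genes lay higher and 2.18% lower without overlap. The SE of 0.25 limits what could be seen for CYP1A1 and AHRR, and the TIPARP difference of over 3 times its SE did not pass.

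The receptor's neighbours were followed through 8 lists with 91 genes, of which 79 passed the filter. They were chosen with earlier results of these data known. In LPA-to-FAKi against LPA-to-soft, 0 of the 79 passed edgeR's test, against 0% of all genes. At an unadjusted p under 0.05, 32 passed, 17 higher and 15 lower, and after adjustment 2 passed by limma voom and 15 by DESeq2. Of all 15437 genes, 3439 (22.3%) passed unadjusted, 37 (0.24%) by limma voom and 1231 (7.97%) by DESeq2, and each list's counts against LPA-to-soft below stand beside these shares, with nothing called particular to a list. Against soft-to-soft 4 of the 79 fell and none rose, where 0.564% of all genes passed (0.408% lower and 0.155% higher). Against stiff-to-soft 1 rose and none fell, where 0.0324% passed (0.0259% higher and 0.00648% lower). Between stiff-to-soft and soft-to-soft 1 was higher and 3 lower in stiff-to-soft, beside 0.24% and 0.343% of all genes. The count over all genes hung on single libraries: in LPA-to-FAKi against LPA-to-soft it went from 0 to 639 without soft-to-soft replicate 2 and to 62 without LPA-to-FAKi replicate 3, and against soft-to-soft from 87 to 0 without soft-to-soft replicate 3 and to 307 without soft-to-soft replicate 2. With no replicate block, edgeR passed 0 genes in all 6 comparisons, so each call named below was lost there, at adjusted p from 0.999 to 1.00. The calls against soft-to-soft were also lost when its replicates 1 and 2 were both left out, with 0 genes passing. Each was lost as well when only the 2 conditions compared were fitted (adjusted p from 0.0992 for KRT13 to 0.208 for AKR1B10), where 1 gene passed in each comparison.

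The cytosolic complex and coactivators comprised 9 genes, all tested, and none passed edgeR's test in a comparison with LPA-to-FAKi. Their median log2 fold change was -0.04 against LPA-to-soft, beside 0.00 over all genes, and at an unadjusted p under 0.05 1 was higher and 1 lower, with none passing by limma voom and 2 by DESeq2 after adjustment. HSP90AB1 and HSP90AA1, the chaperones that hold the receptor ready, differed from LPA-to-soft by 0.03 ± 0.07 and -0.04 ± 0.10 (edgeR adjusted p = 0.855 and 0.856). These close paralogs can share reads.

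The xenobiotic battery, enzymes and transporters that the receptor is known to induce beside the CYP1 family members above, held 11 genes. CYP1A2, UGT1A1, GSTA1 and GSTA2, which are mainly liver or intestinal enzymes, were at or near 0 and failed the filter. Of the 7 tested, none passed in a comparison with LPA-to-FAKi by edgeR (0%, 0.564% and 0.0324% of all genes), with 1 higher and 1 lower against LPA-to-soft at an unadjusted p under 0.05, none after adjustment by limma voom and 2 by DESeq2. Their median log2 fold change was 0.10 against LPA-to-soft, -0.06 against soft-to-soft and 0.02 against stiff-to-soft. NFE2L2, a stress response factor that the receptor can induce, differed from LPA-to-soft by -0.07 ± 0.07 (edgeR adjusted p = 0.621), and CYP2S1, an epithelial cytochrome P450, by -0.03 ± 0.15 (edgeR adjusted p = 0.937).

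NQO1, a quinone reductase shared by the receptor and NRF2, was singled out after its values were seen. Its level was 90.8, 108 and 97.7 CPM in LPA-to-FAKi, 50.9, 96.4 and 87.2 in LPA-to-soft, 62.1, 99.1 and 85.6 in soft-to-soft, and 66.9, 88.2 and 85.0 in stiff-to-soft. The library with the inhibitor was the highest at every replicate number, as for 5.27% of genes. Ranges overlapped except against stiff-to-soft, where 3.82% of genes lay higher without overlap. The differences were 0.39 ± 0.11, 0.30 ± 0.11 and 0.32 ± 0.11, with edgeR adjusted p = 0.104, 0.227 and 0.289, and in DESeq2 the first passed (adjusted p = 0.0297, with 0.0297 to 0.846 over 20 settings). Without LPA-to-FAKi replicate 1 the NQO1 differences were 0.24, 0.15 and 0.17, and the first was 0.23 without LPA-to-soft replicate 1. XDH, xanthine dehydrogenase, rose from soft-to-soft to stiff-to-soft by 0.62 ± 0.10 (edgeR adjusted p = 0.0286), from 72.5, 44.8 and 71.4 CPM to 100.2, 84.2 and 100.8. It was higher in 3 of 3 replicate numbers with no overlap, as for 2.16% of genes. That call was lost, at adjusted p from 0.0505 to 0.163, without soft-to-soft replicate 2 or 3, any stiff-to-soft library, LPA-to-soft replicate 2 or 3, or LPA-to-FAKi replicate 2. In LPA-to-FAKi XDH stood at 59.6, 56.2 and 72.7 CPM. It differed from LPA-to-soft by -0.35 ± 0.10 (edgeR adjusted p = 0.102), with DESeq2 calling it lower (adjusted p = 0.0291, and 0.0291 to 0.839 over 20 settings), and it also passed in edgeR without soft-to-soft replicate 2 (adjusted p = 0.0344). From stiff-to-soft it differed by -0.60 ± 0.10 (edgeR adjusted p = 0.0665), and it passed by limma voom (adjusted p = 0.0412) and DESeq2, in edgeR with soft-to-soft replicate 1 (0.0409) or 2 (0.00588) left out, and in 7 of 20 settings in all, with a range of 5.85e-05 to 1.00. These XDH comparisons were singled out after their values were seen.

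Other genes reported as receptor targets, mostly cytokines, growth factors and differentiation genes, numbered 16, of which 15 were tested. Against LPA-to-soft none passed, with a median of -0.06, 4 higher and 3 lower at an unadjusted p under 0.05 (22.3% of all genes), none after adjustment by limma voom and 5 by DESeq2 (7.97% of all genes). SLC7A5, an amino acid transporter that also carries kynurenine, differed by 0.26 ± 0.10 (edgeR adjusted p = 0.160). HES1, a transcription factor better known as a Notch target, stood at 227, 164 and 428 CPM in LPA-to-FAKi, 391, 218 and 447 in LPA-to-soft, 453, 254 and 638 in soft-to-soft, and 294, 189 and 379.9 in stiff-to-soft. It was highest in soft-to-soft at each replicate number, with overlapping ranges. HES1 fell relative to soft-to-soft in LPA-to-FAKi, with a log2 fold change of -0.73 ± 0.11 (edgeR adjusted p = 0.0251), and in stiff-to-soft, with -0.60 ± 0.11 (edgeR adjusted p = 0.0449), and these comparisons share the soft-to-soft libraries. The first call was lost without soft-to-soft replicate 1 or 3 or LPA-to-FAKi replicate 1 or 2 (adjusted p from 0.0581 to 0.125). The other was lost without any library of soft-to-soft or stiff-to-soft, LPA-to-soft replicate 2 or 3, or LPA-to-FAKi replicate 2 (adjusted p from 0.0582 to 0.253).

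EREG, epiregulin, a ligand of the EGF receptor, stood at 56.1, 49.4 and 48.3 CPM in LPA-to-FAKi, 46.6, 36.4 and 41.9 in LPA-to-soft, 48.1, 44.5 and 45.8 in soft-to-soft, and 37.1, 29.8 and 32.8 in stiff-to-soft. Its stiff-to-soft libraries lay under those of soft-to-soft and of LPA-to-FAKi without overlap, as 2.19% of genes did for the first and 3.82% for the second. EREG was 0.63 ± 0.07 higher in LPA-to-FAKi than in stiff-to-soft (edgeR adjusted p = 0.00735) and fell from soft-to-soft to stiff-to-soft, with -0.48 ± 0.07 (edgeR adjusted p = 0.0156). Leaving out stiff-to-soft replicate 2 or 3 or LPA-to-FAKi replicate 2 ended the first call (adjusted p from 0.0779 to 0.0879). Leaving out soft-to-soft replicate 3 or stiff-to-soft replicate 2 or 3 ended the second (adjusted p from 0.0802 to 0.105).

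**Figure D4:**
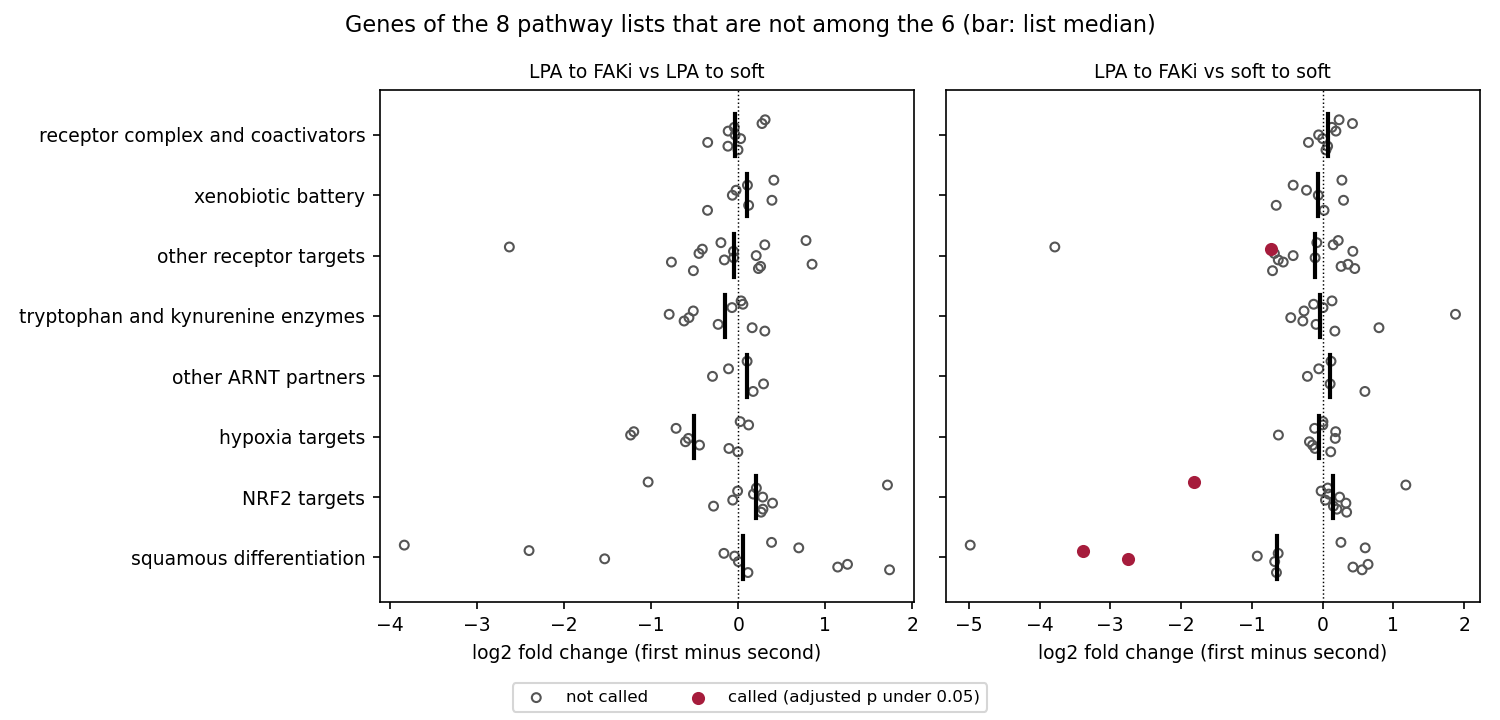
Fitted log2 fold change (x axis) of the tested genes of the 8 lists (rows) for LPA-to-FAKi against LPA-to-soft (left) and against soft-to-soft (right). Each circle is a gene, filled where the adjusted p was under 0.05, and the bar is the median of the list. No circle is filled on the left and 4 are filled on the right, HES1, AKR1B10, KRT1 and KRT4.

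Genes of tryptophan breakdown, a route that includes receptor ligands such as kynurenine, numbered 13, among them the transporter chain SLC3A2. Of these 10 were tested. None passed edgeR's test in a comparison with LPA-to-FAKi, while KMO, kynurenine 3-monooxygenase, was called lower than in stiff-to-soft by limma voom and by DESeq2. KMO and SIM2, in the list of ARNT partners, are named here after their values were seen. Against LPA-to-soft 1 was higher and 1 lower at an unadjusted p under 0.05, none passed by limma voom and 2 by DESeq2, and the median was -0.15. KYNU, kynureninase, differed by -0.23 ± 0.15 (edgeR adjusted p = 0.379), or -0.10 without LPA-to-FAKi replicate 1, -0.14 without LPA-to-soft replicate 2 and -0.37 without LPA-to-FAKi replicate 2, and SLC3A2, the partner chain of SLC7A5, by 0.30 ± 0.10 (edgeR adjusted p = 0.116).

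Since ARNT also serves the hypoxia-inducible factors, its other partners and hypoxia targets were listed. Of 5 tested partners none passed edgeR's test in a comparison with LPA-to-FAKi, and by DESeq2 SIM2, a developmental transcription factor, was higher than in soft-to-soft. Against LPA-to-soft 1 was lower at an unadjusted p under 0.05, none passed by limma voom or DESeq2, and the median was 0.10. HIF1A and EPAS1, the oxygen-regulated partners, differed from LPA-to-soft by -0.30 ± 0.11 and -0.11 ± 0.06 (edgeR adjusted p = 0.140 and 0.290), and HIF1A by -0.15 without LPA-to-FAKi replicate 1. Of 10 hypoxia targets none passed in edgeR, with 4 lower at an unadjusted p under 0.05 (22.3% of all genes in either direction), none by limma voom or DESeq2, and a median of -0.51. SLC2A1, the glucose transporter, was -0.11 ± 0.11 and VEGFA, the angiogenic factor, was 0.00 ± 0.09 (edgeR adjusted p = 0.606 and 0.981). LPA-to-soft replicate 1 stood apart on this list, with a summed level of 1233 CPM where the other libraries had 617 to 789. Without that library the difference of LPA-to-FAKi from LPA-to-soft was 1.48 ± 0.30 for CYP1A1, 0.48 ± 0.20 for CYP1B1, 0.45 ± 0.26 for AHRR and -0.71 ± 0.18 for AHR.

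Targets of NRF2, the oxidant sensor whose gene NFE2L2 and whose target NQO1 overlap with the receptor's, numbered 11, all tested. Against LPA-to-soft none passed in edgeR, 6 were higher and 1 lower at an unadjusted p under 0.05 (22.3% of all genes), 1 passed by limma voom and 3 by DESeq2 (7.97% of all genes), and the median was 0.21. TXNRD1 and SRXN1, antioxidant enzymes, differed by 0.26 ± 0.10 and 0.28 ± 0.10 (edgeR adjusted p = 0.165 and 0.134), each higher in 3 of 3 replicate numbers. Without LPA-to-FAKi replicate 1 they were 0.11 and 0.18, and TXNRD1 was 0.15 without LPA-to-soft replicate 1. AKR1C1, an aldo-keto reductase with near-identical paralogs, singled out after its values were seen, stood at 24.7, 3.98 and 1.89 CPM in LPA-to-FAKi and 3.82, 2.38 and 0.72 in LPA-to-soft, and LPA-to-FAKi replicate 1 was far above the rest, and the difference was 1.04 without it. Its difference was 1.71 ± 0.37 (edgeR adjusted p = 0.0757), and it passed by limma voom (adjusted p = 0.0495) and by DESeq2 (adjusted p = 0.000148), in 4 of 20 settings in all, with a range of 0.000148 to 0.839. In edgeR it passed without soft-to-soft replicate 2 (adjusted p = 0.0370) and with soft-to-soft replicates 1 and 2 both left out (adjusted p = 0.0495). AKR1B10, another member of that enzyme family, fell in LPA-to-FAKi relative to soft-to-soft, with a log2 fold change of -1.82 ± 0.32 (edgeR adjusted p = 0.0387), from 16.3, 6.42 and 9.07 CPM to 2.06, 1.73 and 4.84. This call was lost, at adjusted p from 0.0568 to 0.141, without soft-to-soft replicate 1 or 3, stiff-to-soft replicate 3, LPA-to-soft replicate 2 or 3, or LPA-to-FAKi replicate 1 or 2.

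Squamous differentiation genes numbered 14, of which 12 were tested. Against LPA-to-soft none passed, with 4 higher and 3 lower at an unadjusted p under 0.05 (22.3% of all genes), 1 by limma voom and 1 by DESeq2 (7.97% of all genes), and a median of 0.06. SPRR1B, a precursor of the cornified envelope with close paralogs, differed by 1.14 ± 0.39 and KRT13, a keratin of mucosal epithelium, by -0.04 ± 0.20 (edgeR adjusted p = 0.132 and 0.921). SPRR1B passed in edgeR without soft-to-soft replicate 2 (adjusted p = 0.0453), the lowest of 20 settings, which reached 0.852. KRT1, a keratin of the upper layers, fell in LPA-to-FAKi relative to soft-to-soft, with a log2 fold change of -3.38 ± 0.53 (edgeR adjusted p = 0.0251), from 114, 15.0 and 12.3 CPM to 3.91, 1.58 and 2.75. KRT4, a mucosal keratin, fell likewise, with -2.75 ± 0.48 (edgeR adjusted p = 0.0383), from 189, 77.6 and 29.9 CPM to 9.93, 10.96 and 10.2. The ranges of AKR1B10, KRT1 and KRT4 did not overlap, as for 3.12% of genes in that direction. KRT13 fell from soft-to-soft to stiff-to-soft, with -1.41 ± 0.20 (edgeR adjusted p = 0.0170), from 655, 346 and 184 CPM to 334, 90.4 and 73.1. The calls of KRT1 (adjusted p from 0.0512 to 0.0920) and KRT4 (from 0.0549 to 0.126) were lost without soft-to-soft replicate 1 or 3, stiff-to-soft replicate 3 or LPA-to-FAKi replicate 1 or 2, and that of KRT4 also without LPA-to-soft replicate 2 or 3. The call of KRT13 was lost without soft-to-soft replicate 3 or stiff-to-soft replicate 2 or 3 (adjusted p from 0.0605 to 0.134).

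The libraries carried the markers of squamous epithelium, with 6 of 6 detected in each and summed levels of 4768 to 11329 CPM. EPCAM, an epithelial surface protein, stood at 179 to 311 CPM. Of these 6, edgeR called 2 lower in stiff-to-soft than in soft-to-soft, beside 0.343% of all genes, with a list median of -0.45. Both calls were lost with no replicate block. The summed level of the 6 leukocyte markers was 46.2, 31.0 and 18.5 CPM in LPA-to-FAKi and 12.2 to 18.8 in the other libraries. CD68, a lysosomal glycoprotein of macrophages that many cell types also express, made up most of it, at 41.9, 29.4 and 15.0 CPM in LPA-to-FAKi and 11.7, 16.9 and 9.49 in LPA-to-soft. Its difference was 1.14 ± 0.22 (edgeR adjusted p = 0.0752), and it passed without soft-to-soft replicate 2 (edgeR adjusted p = 0.0332), without LPA-to-FAKi replicate 3 (0.0289), without soft-to-soft replicates 1 and 2 (0.0413) and by DESeq2 (4.86e-05), in a range up to 0.839 over 20 settings. Without LPA-to-FAKi replicate 1 the difference was 0.75. CD68 was singled out after its values were seen. CD3E, a T cell marker, was at 0 in every library, and PTPRC, the common leukocyte antigen, was at 0 in all libraries with the inhibitor. Fibroblast markers summed to 14.6 to 36.4 CPM and endothelial markers to 5.74 to 37.8 CPM.

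Deposited totals ranged from 62953957 to 122311183 counts per library. In 10 libraries 96.8% to 97.8% of counts between 1 and 19 were even numbers, and in soft-to-soft replicates 1 and 2 these shares were 42.9% and 42.2%. The part of this difference in the results was not tested beyond halving the counts of the 10 libraries and leaving out both soft-to-soft replicates 1 and 2. Without both, the difference of LPA-to-FAKi from LPA-to-soft was 1.62 ± 0.24 for CYP1A1, 0.55 ± 0.13 for CYP1B1, 0.71 ± 0.27 for AHRR and -0.83 ± 0.15 for AHR.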

How the data were processed

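RNA of Cal27 cells in 12 samples was sequenced from stranded TruSeq libraries, per the labels' protocols. The authors deposited whole-number counts for each gene symbol. A second deposited table, in log2 units, was used only to check that its columns match the counts. Cutadapt, FastQC, STAR, HTSeq and DESeq2 and the build hg19 are named, without versions, per the submitters' processing notes. Whether replicates came from separate cultures is not stated, so each p-value reflects the spread of these libraries alone, which may be technical.

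Counts were fitted with edgeR 4.0.16 (R 4.3.3): TMM scaling, filterByExpr by condition (15437 genes left), a model of 4 conditions with replicate number as a block over all 12 libraries, quasi-likelihood F tests, and Benjamini-Hochberg adjustment over all genes, with 0.05 as threshold. SE is the log2 fold change divided by the square root of F. Log2 CPM used a prior count of 2. The comparisons number 6. Members, lists and the block were chosen with earlier results of these data known, among them that genes pass after adjustment with the block and not without it. The 6 genes have no p in comparisons with LPA-to-FAKi. Named genes were the 6 members, up to 4 called genes per list and comparison, the 2 most abundant of a list without a call in a comparison with LPA-to-FAKi, and the 3 nearest by Pearson's r per member. Others are marked as singled out.

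The replicate numbers come from the sample titles. Deviations from the condition means correlated at 0.31 to 0.66 over the 18 pairs of libraries of the same number in different conditions, and at -0.52 to 0.04 over the 36 pairs of different numbers. Deviations within a condition sum to 0 for each gene, so the second range follows in part from the first. On simulated counts for LPA-to-FAKi against LPA-to-soft (15271 genes), 100 genes each were changed by 1 and by 2 on the log2 scale. The edgeR fit recovered 76% and 88% of them, with 8 false calls. These counts were drawn from a fitted model of replicate number, without the even-number pattern of 10 libraries. In it no other gene differed between conditions. The shares therefore need not hold for the deposited counts, where 0 genes passed in that comparison. Alternatives were no block, median-ratio factors, DESeq2 1.42.0, limma voom 3.58.1, no filter, fewer conditions or libraries, and halved counts for the 10 libraries with mostly even counts. Symbols turned into dates (28) were kept as rows. Values of some listed genes are not reported here.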

Additional observations from a re-analysis of the deposited data

How the results depend on the processing

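With replicate number as the block, 0, 87, 5, 0, 90 and 1 genes passed in LPA-to-FAKi against LPA-to-soft, soft-to-soft and stiff-to-soft, LPA-to-soft against soft-to-soft, then stiff-to-soft against soft-to-soft and against LPA-to-soft, in that order, and with no replicate block the counts were 0 in all 6. At an unadjusted p under 0.05 the fit with no replicate block gave 838, 548, 453, 211, 300 and 215 genes. In the same order, DESeq2 gave 1231, 704, 346, 72, 443 and 66 genes, limma voom 37, 176, 27, 0, 119 and 1, no low-count filter 25, 206, 75, 0, 158 and 1, median-ratio factors 0, 91, 10, 0, 101 and 0, the fit of only the 2 conditions compared 0, 1, 254, 3, 1 and 4, and the fit without soft-to-soft replicates 1 and 2 202, 0, 164, 0, 0 and 1. Halved counts for the 10 libraries with mostly even counts gave 0, 99, 5, 0, 100 and 1. Leaving out each library in turn gave 0 to 639, 0 to 307, 1 to 195, 0 to 0, 7 to 228 and 0 to 3. Those counts moved by over 1.5 times for 4, 9, 7, 0, 9 and 12 of the 12 libraries. The cause of these moves was not tested.

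Values near 0 changed sign. HSP90AB1 in LPA-to-FAKi against soft-to-soft was -0.0010 with median-ratio factors, -0.0010 by DESeq2, -0.010 with no filter, -0.00019 with halved counts and -0.0082 with only the 2 conditions, and HSP90AA1 was 0.074 without soft-to-soft replicates 1 and 2. CYP2S1 against stiff-to-soft was -0.064 with no replicate block. AHRR in LPA-to-soft against soft-to-soft was 0.079 with no replicate block, 0.016 by voom and 0.019 without soft-to-soft replicates 1 and 2. Between stiff-to-soft and soft-to-soft AHRR was -0.0074 with no replicate block and -0.025 by voom, and CYP1A1 was 0.014 without soft-to-soft replicates 1 and 2. In stiff-to-soft against LPA-to-soft AHRR was -0.086 with no replicate block and -0.041 by voom, and CYP1A1 was -0.012 with no replicate block.

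Leaving out each library turned the sign of these values. In LPA-to-FAKi against LPA-to-soft the ranges were HSP90AB1 -0.038 to 0.070, HSP90AA1 -0.11 to 0.049, CYP2S1 -0.15 to 0.075, SLC2A1 -0.22 to 0.084, VEGFA -0.055 to 0.019 and KRT13 -0.24 to 0.16. Against soft-to-soft they were TIPARP -0.11 to 0.015, ARNT -0.19 to 0.012, HSP90AB1 -0.034 to 0.056, HSP90AA1 -0.12 to 0.0063, NFE2L2 -0.17 to 0.0036 and KYNU -0.33 to 0.075, and against stiff-to-soft HSP90AA1 -0.16 to 0.055, NFE2L2 -0.092 to 0.0089, CYP2S1 -0.12 to 0.30, SLC2A1 -0.024 to 0.12 and VEGFA -0.045 to 0.13. In LPA-to-soft against soft-to-soft they were CYP1B1 -0.099 to 0.34, AHR -0.029 to 0.23, AHRR -0.32 to 0.23 and ARNT -0.011 to 0.18. Between stiff-to-soft and soft-to-soft they were CYP1A1 -0.27 to 0.068, AHRR -0.19 to 0.16 and ARNT -0.12 to 0.074, and against LPA-to-soft CYP1A1 -0.094 to 0.55, CYP1B1 -0.11 to 0.27 and AHRR -0.20 to 0.34.

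None of the 9 called values of listed genes named above stayed under the threshold in all settings, and with no replicate block all were lost. With 3 libraries per condition, the TIPARP difference between stiff-to-soft and soft-to-soft, at -0.27 ± 0.08, did not pass.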
